A study of Mus musculus with 6 samples.

Results

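The genes described here carry out DNA replication and mitosis. They are 30 named genes, chosen by name from a list of proliferation genes, by a rule that uses no measured value (the list was drawn up with earlier results of these data known): 13 of replication (Mcm2 to Mcm7, Pcna, Rrm1, Rrm2, Tyms, Tk1, Ccne1 and Ccne2) and 17 of mitosis (Mki67, Top2a, Ccnb1, Ccnb2, Ccna2, Cdk1, Bub1, Bub1b, Aurka, Aurkb, Plk1, Kif11, Tpx2, Birc5, Cenpf, Cdc20 and Ube2c). All 30 were among the 18122 genes of the count table, and all 30 passed the filter on low counts, which kept 13691 genes.

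RNA was sequenced from lung group 2 innate lymphoid cells (ILC2s) that had been sorted and then cultured, with 3 libraries per genotype. The WT libraries carry the genotype label BALB/C BYJ and the ICOS KO libraries C.129S4-Icostm1Shr/J, a line in which the gene of the co-stimulatory receptor ICOS is disrupted. No source used here states the age of the mice or the stimuli in culture. Since the strain name changes with the Icos allele, the 2 cannot be told apart, and the labels leave unsaid whether each library had its own mouse or culture, so the tests measure only how far these libraries spread.

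ILC2s are tissue-resident lymphocytes that divide when they are given cytokines such as IL-33, IL-2 or IL-7, and cultured ILC2s are usually an expanding population. During G1 phase the hexameric MCM helicase is loaded on replication origins, and at the start of S phase cyclin E and its kinase help to fire them while nucleotide-making enzymes rise. The mitotic kinases, spindle proteins and their degradation machinery accumulate later, in G2 phase and mitosis. Replication genes are classic targets of the E2F factors, while the mitotic set is held down in resting cells by the DREAM complex and induced by B-MYB and FOXM1, largely through a short promoter element named CHR (cell-cycle genes homology region) and CCAAT boxes bound by NF-Y.

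Promoter sequences of the 2 groups were searched for the elements named above, without any use of expression values. RefSeq promoter windows (GRCm38.p6, 250 bases before to 50 bases after the start) were found for 25 of the 30 genes, 11 of replication with 12 windows (Mcm7 has 2) and 14 of mitosis. No window was used for Mcm4, Ccne2, Ccna2, Aurkb or Tpx2. Searched on both strands were CHR (TTTGAA or TTTAAA or TTCGAA), the CCAAT box (CCAAT) and 6 E2F words: TTTGGCGC and TTTGGCGG, TTTCGCGC and the shorter TTCGCGC within it, and TTTCCCGCC and the shorter TTTCCCGC within it. A word inside a longer match of the same motif was not counted again. Exon-free stretches of 8 promoters that hold examples of these elements are printed 5′ to 3′ on the strand of the gene, with every match in capitals. The first 3 belong to replication genes and the others to mitosis genes.
Mcm5, chr8:75109278-75109506 (+ strand): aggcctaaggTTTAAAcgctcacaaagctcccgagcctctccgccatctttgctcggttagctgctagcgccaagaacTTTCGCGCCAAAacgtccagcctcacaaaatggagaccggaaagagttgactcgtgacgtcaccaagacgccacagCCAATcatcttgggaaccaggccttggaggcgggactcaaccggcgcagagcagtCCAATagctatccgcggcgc
Mcm6, chr1:128359706-128359825 (- strand): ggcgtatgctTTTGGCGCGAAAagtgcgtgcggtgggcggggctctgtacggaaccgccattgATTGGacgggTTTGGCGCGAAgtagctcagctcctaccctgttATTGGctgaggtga
Rrm1, chr7:102441594-102441669 (+ strand): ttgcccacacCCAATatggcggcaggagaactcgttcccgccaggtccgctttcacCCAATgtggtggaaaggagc
Top2a, chr11:99024192-99024426 (- strand): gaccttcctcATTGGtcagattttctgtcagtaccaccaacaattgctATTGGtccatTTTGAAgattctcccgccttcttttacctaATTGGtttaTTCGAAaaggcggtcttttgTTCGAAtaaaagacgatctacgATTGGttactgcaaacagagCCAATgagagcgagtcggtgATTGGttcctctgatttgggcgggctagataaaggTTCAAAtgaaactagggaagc
Mki67, chr7:135716457-135716577 (- strand): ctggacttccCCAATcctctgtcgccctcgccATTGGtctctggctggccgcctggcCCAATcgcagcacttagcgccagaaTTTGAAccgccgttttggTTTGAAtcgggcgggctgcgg
Cdk1, chr10:69352941-69353130 (- strand): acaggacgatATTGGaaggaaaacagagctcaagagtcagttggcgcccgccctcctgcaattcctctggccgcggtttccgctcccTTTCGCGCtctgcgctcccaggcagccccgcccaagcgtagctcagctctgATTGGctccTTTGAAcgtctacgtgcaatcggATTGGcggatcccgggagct
Cdc20, chr4:118437353-118437406 (- strand): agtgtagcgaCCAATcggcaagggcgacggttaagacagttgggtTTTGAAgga
Kif11, chr19:37376327-37376381 (+ strand): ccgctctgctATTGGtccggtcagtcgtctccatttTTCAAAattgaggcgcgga

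In the Mcm6 stretch E2F words begin at -110 and -47, counting the base before the start as -1, each overlapping the next E2F match on the other strand (at -106 and -43), and CCAAT boxes lie at -57 and -14. Mcm5 has E2F words at -153 and -149, CCAAT boxes at -77 and -22, and a CHR word at -221. Rrm1, which encodes the large subunit of ribonucleotide reductase, has CCAAT boxes at -91 and -45 and no match to the other words. Top2a has CHR words at -179, -140, -120 and -23 among 6 CCAAT boxes, and Mki67 has CHR words at -116 and -98. Cdk1 carries a CHR word at -71 between CCAAT boxes at -80 and -48, and an E2F word at -131. Cdc20 and Kif11 each pair a CHR word near the start, at -18 and -19, with a CCAAT box upstream, at -53 and -45.

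A CHR word was present in 14 of 14 mitosis windows (100%), in 6 of 12 replication windows (50%) and in 28.8% of the 32851 promoter windows of the genome. At least 2 CHR words occurred in 8 of the mitosis windows (57.1%), in 0 of the replication windows and in 6.67% of all windows. CHR and CCAAT together were found in 13 of 14 mitosis windows (92.9%), in 4 of 12 replication windows (33.3%) and in 11.3% of all. The E2F words occurred in 4 of 12 replication windows (33.3%), in 1 mitosis window (7.14%, that of Cdk1) and in 3.55% of all windows. The differences between the groups of windows were not tested. A match describes letters only, and a window without a match says nothing about which factor acts on the gene.

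The libraries held between 13738058 and 18736450 counts, so that 3 reads, taken as the floor, equal 0.157 to 0.225 CPM (reads scaled to library size). Replicates were distinct libraries, since counts of every pair differed by more than sampling noise (chi-square per degree of freedom of 8.36 or more). ICOS KO replicate 2 stood apart on the leading principal component (40.4% of the variance), with a score of 54.71, where ICOS KO replicates 3 and 1 scored 27.51 and 9.33 and WT -35.02 to -22.28. It also had the highest level of the nuclear RNA Malat1, 1687 CPM against 1413 and 811 CPM in ICOS KO replicates 3 and 1 and 610 to 996 CPM in WT. The targeted gene followed the labels: Icos was at 434, 462 and 502 CPM in WT against 140, 170 and 161 CPM in ICOS KO (log2 fold change -1.57, adjusted p = 1.27e-05, edgeR quasi-likelihood test). An exact two-sided permutation test on Icos gave p = 0.1, the smallest that 20 splits of 3 against 3 allow. ILC2 markers were present in both genotypes, with 14 of 14 above the floor and a summed level of 11630 to 12833 CPM in WT and 11715 to 12407 CPM in ICOS KO. Single markers did differ. Of the 14, 3 were called higher in ICOS KO at an adjusted p below 0.05 (edgeR), with log2 fold changes of 1.41 (Areg), 1.21 (Klrg1) and 0.45 (Il1rl1). Called lower were 2, Icos and Rora (-0.47), where 3.29% of all genes were called in either direction.

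The replication and mitosis genes were strongly expressed in both genotypes and none was called different between them. In every library the 30 genes took between 0.784% and 0.937% of all counts, with 403 counts or more per gene and library. At an adjusted p below 0.05 (edgeR quasi-likelihood test, Benjamini-Hochberg over all genes), 0 of 13 replication genes and 0 of 17 mitosis genes differed, against 3.29% of all genes tested (1.29% higher and 2.01% lower in ICOS KO). DESeq2 and limma voom also called 0 of the 30. An unadjusted p below 0.05 was reached by 4 of 30 (Rrm1 and Mcm4 lower, Birc5 and Ube2c higher in ICOS KO), against 19.9% of all genes. The libraries of the genotypes did not overlap for 2 of 30, Pcna (higher in ICOS KO) and Rrm1 (lower), against 24.4% of all genes.

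The precision of these genes was high enough to bound the differences. The 95% interval of the log2 fold change lay within 1.5-fold in either direction for 29 of 30 genes (96.7%), against 41.2% of all genes tested and 76.2% of the 5425 genes expressed at or above the lowest of the 30. The exception was Mcm4, whose interval ran from -0.59 to -0.02. The median standard error was 0.10 for the 30 genes, 0.12 for the 5425 genes and 0.18 for all genes. The log2 fold changes had a standard deviation of 0.16 among the 30, 0.29 among the 5425 and 0.57 among all genes. In bulk RNA, fewer cycling cells and less RNA of these genes per cell cannot be told apart.

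**Figure D1:**
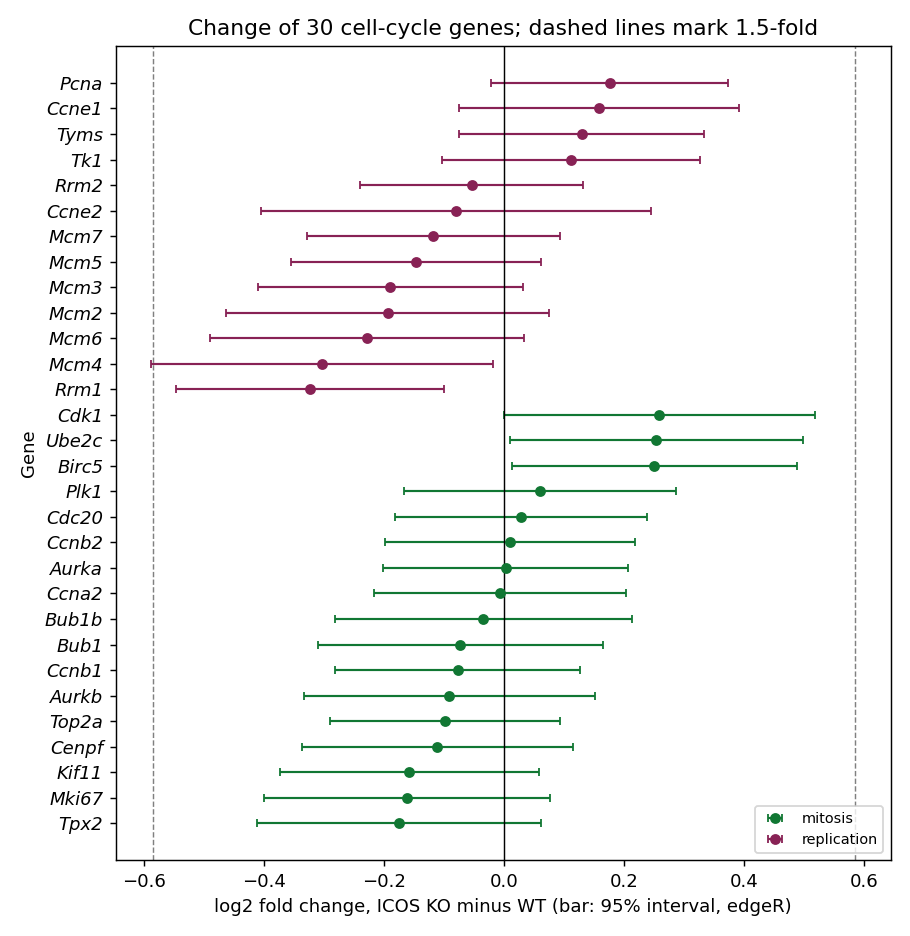
Log2 fold change (ICOS KO minus WT, horizontal axis) of each of the 30 genes (vertical axis), coloured by group, with the 95% interval of the edgeR fit as a bar and dashed lines at 1.5-fold. Rrm1 has the most negative value (-0.32) and Cdk1 the most positive (0.26), and only the bar of Mcm4 crosses a dashed line.

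Levels were compared between genes per transcript length, as TPM (reads per transcript length, scaled to library size) in WT, computed from the longest coding transcript. Rrm2, the small subunit of ribonucleotide reductase whose protein limits deoxynucleotide supply, had the highest level of the 30, 1276 ± 62.7 TPM (SD, n = 3). By its mean level per length over the libraries of both genotypes it ranked 101 among the genes tested. Pcna, the sliding clamp of the DNA polymerases, followed at 466 ± 15.8 TPM, and Cdc20, the activator that turns the anaphase-promoting complex (APC/C) on its mitotic substrates, at 428 ± 31.9 TPM. The spreads of Pcna and Cdc20 over the WT libraries touch, so their order is not resolved. At the other end Cenpf, a large kinetochore protein, stood at 14.4 ± 0.264 TPM and Ccne2, the second E-type cyclin, at 21.1 ± 3.09 TPM.

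The 6 helicase subunits were all fitted lower in ICOS KO, and none passed the test. Mcm4 was at 251, 241 and 226 CPM in WT against 238, 167 and 177 CPM in ICOS KO (log2 fold change -0.30 ± 0.13 SE, adjusted p = 0.227, edgeR). Mcm6 was at 430, 426 and 387 CPM in WT against 421, 302 and 338 CPM in ICOS KO (-0.23 ± 0.12, adjusted p = 0.308). In both genes ICOS KO replicate 1 lay inside the WT range, while replicates 2 and 3 lay below every WT library.

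Mcm2, Mcm3 and Mcm5 had the same arrangement of libraries, and Mcm7 did not, since its ICOS KO replicate 3 lay inside the WT range. Mcm3 was at 397, 413 and 358 CPM in WT against 379, 313 and 332 CPM in ICOS KO (-0.19 ± 0.10, adjusted p = 0.315). For Mcm2 the levels were 413, 423 and 357 CPM in WT and 415, 308 and 320 CPM in ICOS KO (-0.19 ± 0.12, adjusted p = 0.395). Mcm5, the subunit with the highest level of the 6, was at 600, 579 and 538 CPM in WT against 572, 474 and 505 CPM in ICOS KO (-0.15 ± 0.10, adjusted p = 0.406). Mcm7 differed least, with 351, 331 and 342 CPM in WT against 332, 279 and 332 CPM in ICOS KO (-0.12 ± 0.10, adjusted p = 0.517), and its locus overlaps Cops6 and Ap4m1 on the other strand, from which its reads may not be separable.

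Counted over the complex, ICOS KO replicate 1 was below all WT libraries for 0 of 6 Mcm genes, replicate 2 for 6 and replicate 3 for 5, where 26.5%, 36% and 34.5% of all genes were below WT in these libraries. Without ICOS KO replicate 1, Mcm4 (-0.48, adjusted p = 0.0218, edgeR) and Mcm6 (-0.37, adjusted p = 0.0489) were called lower. Calls over all genes also rose in that setting, to 1090 from 451 in the main fit. Without ICOS KO replicate 2, the library that stood apart, Mcm4 was at -0.20 (adjusted p = 0.512) and Mcm6 at -0.12 (adjusted p = 0.657). With length and GC trends taken out of each library, all 6 values moved toward 0 or past it. The median of all genes tested moved from -0.0035 to 0.0459. Mcm4 was then at -0.17, Mcm2 at -0.04, Mcm3 at -0.05 and Mcm6 at -0.05. Mcm5 (0.02) and Mcm7 (0.02) changed to positive but lay below that median of all genes.

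**Figure D2:**
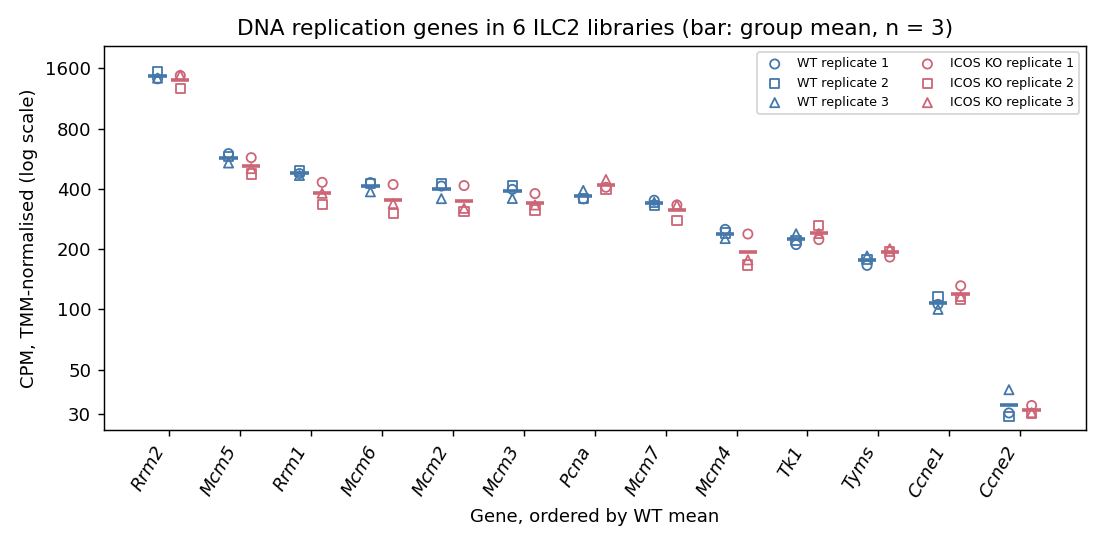
Level of the 13 replication genes in each library (TMM-normalised CPM, log scale), ordered by the WT mean, with 1 marker per replicate and a colour per genotype. Rrm2 lies far above the rest, at 1266 to 1530 CPM, and ICOS KO replicate 2 is the lowest ICOS KO library in 11 of 13 genes.

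Pcna, at 356, 357 and 393 CPM in WT and 407, 396 and 445 CPM in ICOS KO, was the only one of the 30 genes with every ICOS KO library above every WT library. The difference was 0.18 ± 0.09 on the log2 scale (adjusted p = 0.299, edgeR), and 11.9% of all genes were separated in this direction. Pcna lies on chromosome 2 from 132249162 to 132253314 (GRCm38). Its processed copy Pcna-ps2 is counted as a gene of its own in the table at 9.83 to 15.2 CPM, so reads shared between the copies may be divided.

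Among the enzymes that make deoxynucleotides, the subunits of ribonucleotide reductase had unlike values. Rrm1, on chromosome 7 from 102441695 to 102469771, was at 477, 491 and 466 CPM in WT against 431, 335 and 380 CPM in ICOS KO. Every one of the 3 ICOS KO libraries was below all WT libraries (as for 12.5% of all genes), with a log2 fold change of -0.32 ± 0.10 and an adjusted p of 0.116 (edgeR), the smallest of the 30 genes. Rrm2 was at 1416, 1530 and 1428 CPM in WT against 1470, 1266 and 1477 CPM in ICOS KO (-0.05 ± 0.08, adjusted p = 0.759), and its groups overlapped.

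Rrm1 was called lower in ICOS KO when ICOS KO replicate 1 was left out (-0.42, adjusted p = 0.029, edgeR) and in limma voom with library quality weights (adjusted p = 0.0412). Over all genes these settings called 1090 and 906, against 451 in the main fit. Rrm1 was nearer 0 without ICOS KO replicate 2 (-0.23, adjusted p = 0.29) and with length and GC trends removed (-0.19, adjusted p = 0.232). Tyms, which makes thymidylate from deoxyuridylate, was at 166 to 185 CPM in WT and 183 to 201 CPM in ICOS KO (0.13 ± 0.09, adjusted p = 0.46). Tk1, the thymidine kinase of the salvage route, was at 211 to 239 CPM in WT and 223 to 262 CPM in ICOS KO (0.11 ± 0.10, adjusted p = 0.554). Tk1 overlaps Afmid on the other strand, and a copy of Tyms, Tyms-ps, is counted separately at 1.2 to 2.33 CPM.

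The E-type cyclins bind CDK2 at the start of S phase. Per length, Ccne2 had the lowest WT level of the replication genes, while Ccne1 (103.3 ± 9.35 TPM) was not separated from Tyms (106.9 ± 2.33 TPM). Ccne1 was at 106, 117 and 100 CPM in WT against 131, 113 and 116 CPM in ICOS KO (0.16 ± 0.11, adjusted p = 0.422, edgeR). Ccne2 was at 30.5, 29.3 and 39.8 CPM in WT against 33.2, 30.3 and 30.6 CPM in ICOS KO (-0.08 ± 0.15, adjusted p = 0.801). Both overlapped between genotypes, and Ccne2 carried the largest standard error of the 30 genes.

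Among the mitosis genes the largest positive values belonged to Cdk1, Birc5 and Ube2c, whose groups overlapped. Cdk1, the kinase that drives entry into mitosis, was at 169, 179 and 220 CPM in WT against 203, 239 and 238 CPM in ICOS KO (0.26 ± 0.12, adjusted p = 0.253, edgeR). Its cyclin partners had smaller values. Ccnb1 was at 307, 316 and 319 CPM in WT against 311, 268 and 313 CPM in ICOS KO (-0.08 ± 0.09, adjusted p = 0.674), with ICOS KO replicate 2 alone below the rest. Ccnb2 was at 145 to 150 CPM in WT and 139 to 160 CPM in ICOS KO (0.01 ± 0.10, adjusted p = 0.966), and Ccna2, the A-type cyclin used in S phase and G2, at 185 to 203 CPM and 177 to 204 CPM (-0.01 ± 0.10, adjusted p = 0.976). The copy Ccnb1-ps is counted separately at 3.37 to 5.62 CPM, and Ccna2 overlaps Exosc9 on the other strand.

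None of the mitotic kinases passed the test, and their intervals were narrow. Aurka, which acts at the spindle poles, was at 223 to 238 CPM in WT and 217 to 250 CPM in ICOS KO, and its 95% interval ran from -0.20 to 0.21 on the log2 scale. Aurkb, the kinase of the chromosomal passenger complex, was at 202, 198 and 208 CPM in WT against 200, 161 and 210 CPM in ICOS KO (interval -0.33 to 0.15). Plk1, which acts from mitotic entry to cytokinesis, was at 174 to 201 CPM in WT and 177 to 213 CPM in ICOS KO (interval -0.17 to 0.29). The checkpoint genes Bub1 and Bub1b, whose proteins hold back anaphase until chromosomes are attached, had intervals of -0.31 to 0.16 and -0.28 to 0.21. Bub1 was at 56.5 to 59.7 CPM in WT and 52.7 to 58.8 CPM in ICOS KO, and Bub1b at 132 to 149 CPM and 120 to 155 CPM.

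The spindle and kinetochore genes of the group had negative log2 fold changes and did not pass the test. With length and GC trends removed Tpx2 (0.0192) and Cenpf (0.0622) turned positive and Kif11 was at -0.03. The median of all genes tested was 0.0459 in that setting. Kif11, the motor that pushes the spindle poles apart, was at 118, 109 and 116 CPM in WT against 109, 96.8 and 101 CPM in ICOS KO (-0.16 ± 0.10, adjusted p = 0.388, edgeR). Tpx2, the activator of Aurka on the spindle, was at 235, 262 and 201 CPM in WT against 202, 211 and 205 CPM in ICOS KO (-0.18 ± 0.11, adjusted p = 0.384). Cenpf was at 80.3 to 87.7 CPM in WT and 73.6 to 82.7 CPM in ICOS KO (-0.11 ± 0.10, adjusted p = 0.574). All 3 overlapped between genotypes, for Kif11 only by WT replicate 2 and ICOS KO replicate 1.

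Birc5 encodes survivin, a subunit of the chromosomal passenger complex, on chromosome 11 from 117849251 to 117855743. It was at 327, 379 and 384 CPM in WT against 379, 481 and 437 CPM in ICOS KO (0.25 ± 0.11, adjusted p = 0.233, edgeR), and the groups met at ICOS KO replicate 1. Of the mitotic exit pair, Ube2c, the ubiquitin-conjugating enzyme of the APC/C, was at 249, 266 and 318 CPM in WT against 305, 360 and 329 CPM in ICOS KO (0.25 ± 0.11, adjusted p = 0.237). Cdc20 was at 417, 397 and 385 CPM in WT against 408, 367 and 447 CPM in ICOS KO (0.03 ± 0.10, adjusted p = 0.898). Ube2c overlaps Tnnc2, and Cdc20 overlaps Elovl1, so reads there may be divided as well.

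The common proliferation markers did not pass the test either, and their groups overlapped. Mki67, which coats mitotic chromosomes and gives the Ki-67 stain of cycling cells, was at 374, 372 and 359 CPM in WT against 376, 281 and 330 CPM in ICOS KO (-0.16 ± 0.11, adjusted p = 0.42, edgeR). Top2a, the topoisomerase that untangles sister DNA, was at 330, 363 and 357 CPM in WT against 339, 314 and 328 CPM in ICOS KO (-0.10 ± 0.09, adjusted p = 0.557). For Mki67 the interval ran from -0.40 to 0.08 and for Top2a from -0.29 to 0.09.

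**Figure D3:**
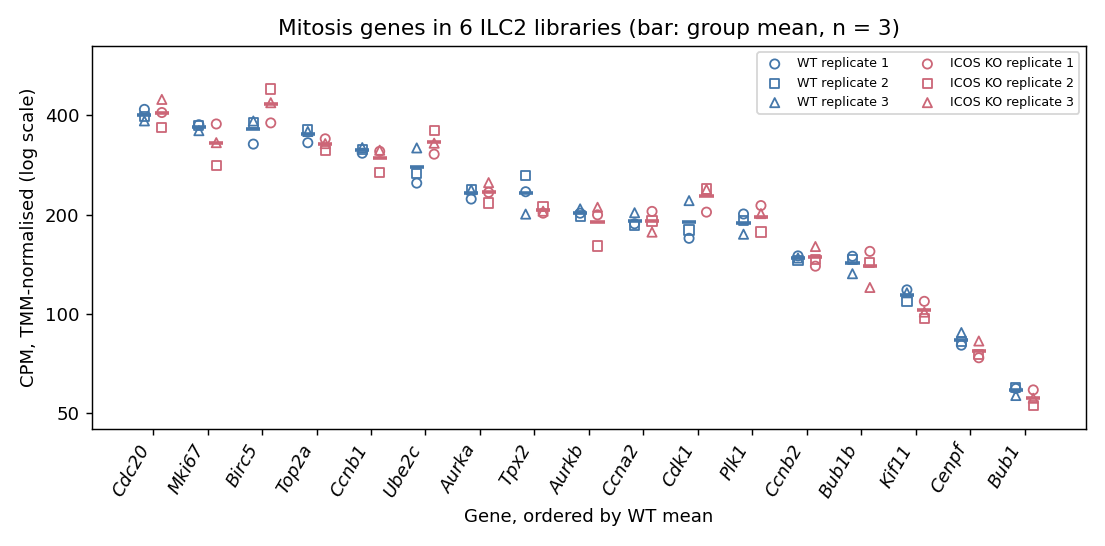
Level of the 17 mitosis genes in each library (TMM-normalised CPM, log scale), ordered by the WT mean, with 1 marker per replicate and a colour per genotype. The genotypes overlap in all 17 genes, and Birc5, Ube2c and Cdk1 show ICOS KO replicates 2 and 3 above every WT library.

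Set beside each other, the replication genes were shifted by -0.12 at the median (log2 fold change, 4 positive and 9 negative) and the mitosis genes by -0.03 (7 positive and 10 negative). Over all genes tested the median was -0.0035 and 49.6% were positive. The mean level of the replication genes, as log2(CPM + 1), was 8.187, 8.210 and 8.179 in WT and 8.220, 8.001 and 8.098 in ICOS KO. That of the mitosis genes was 7.637, 7.665 and 7.673 in WT and 7.668, 7.602 and 7.678 in ICOS KO. ICOS KO replicate 1 was therefore at the WT level or above it for both groups, while replicates 2 and 3 were below WT for replication genes and only replicate 2 was for mitosis genes. Counted gene by gene, ICOS KO replicates 1, 2 and 3 were below all WT libraries for 3, 17 and 12 of the 30 genes and above all of them for 6, 6 and 11. Of all genes, 26.5%, 36% and 34.5% were below all WT libraries in these ICOS KO libraries, and 26%, 35.2% and 32.6% above them.

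The gap between the groups of genes within a library was 0.55, 0.54 and 0.51 in WT and 0.55, 0.40 and 0.42 in ICOS KO, on the same log2 scale, and the genotypes overlapped through ICOS KO replicate 1. Its mean was 0.533 ± 0.0239 in WT and 0.457 ± 0.0826 in ICOS KO (SD, n = 3). The library with the smallest gap, ICOS KO replicate 2, was also the one with the most Malat1 and the largest mitochondrial share, 0.616% of counts against 0.329% and 0.492% in the other ICOS KO libraries and 0.263% to 0.422% in WT. Without that library the median of the replication genes was -0.05 and that of the mitosis genes -0.0029. The part of these library differences in the replication values was not tested.

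**Figure D4:**
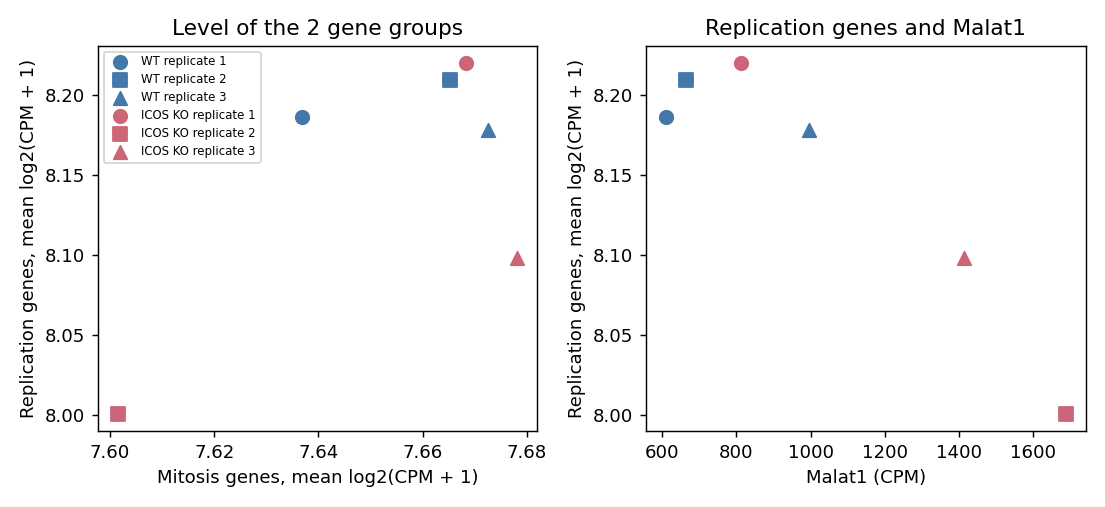
Left, mean log2(CPM + 1) of the 13 replication genes (vertical) against that of the 17 mitosis genes (horizontal), 1 point per library. Right, the replication mean against Malat1 in CPM, where ICOS KO replicates 2 and 3 have the highest Malat1 (1687 and 1413 CPM) and the lowest replication means (8.001 and 8.098).

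The sign of the fold change went with transcript length, among these genes as among all genes. Of the 11 with a longest coding transcript of at most 2500 bases, 8 were positive (72.7%), and so were 68% of the 6051 tested genes of that length. Over 2500 and up to 3500 bases 2 of 9 were positive, and above 3500 bases 1 of 10, which was Cdk1, where 37.9% and 32.6% of all genes were positive. The medians of the 3 classes, from short to long, were 0.03, -0.08 and -0.16 for the 30 genes and 0.14, -0.08 and -0.13 for all genes. Once the length and GC trend of each library was removed the medians of the 30 genes were 0.04, 0.02 and 0.04. Those of all genes in the 3 classes were 0.05, 0.02 and 0.05. The replication median was then -0.02 and the mitosis median 0.05, where the median of all genes tested was 0.0459. The replication median minus the mitosis median was -0.0831 before the removal and -0.0767 after it. The part of the trend in that difference was not tested.

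**Figure D5:**
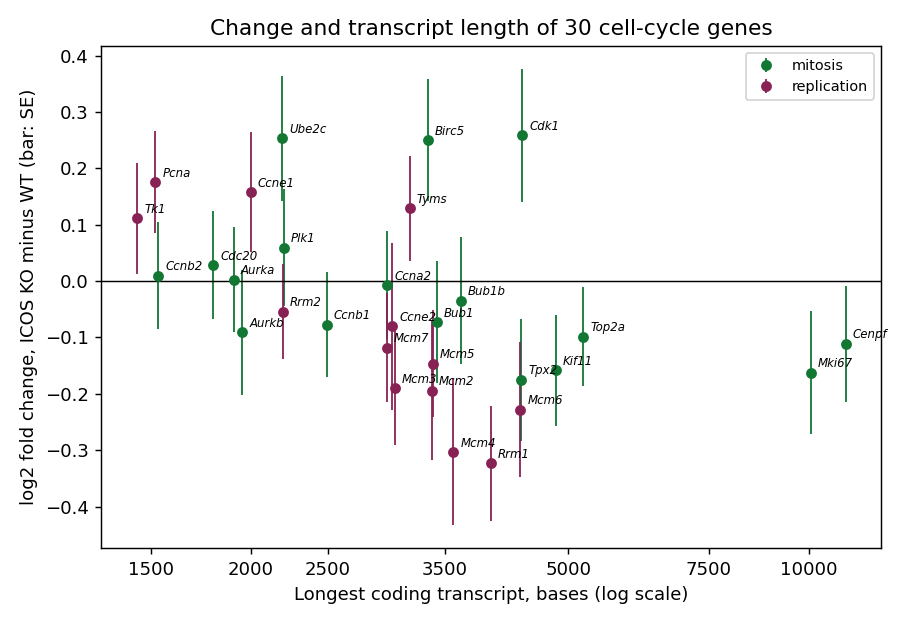
Log2 fold change (ICOS KO minus WT, bar: SE) of the 30 genes against the length of the longest coding transcript in bases (log scale), coloured by group. Most points up to 2500 bases lie above 0 and most points beyond 3500 bases lie below it, with Cdk1 (4375 bases) as the exception among the long ones.

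The rest of the cell-cycle machinery was described from 13 lists with 232 tested genes. Of these 2 were called higher in ICOS KO (Gmnn and Ube2s) and 1 lower (Myc), where 3.29% of all genes tested were called. An unadjusted p below 0.05 was reached by 47 of 232, near the 19.9% of all genes, and the median log2 fold change was -0.03, with 109 positive and 123 negative. Gmnn encodes geminin, which blocks the loading of the MCM helicase outside G1, and was at 66.6, 69.0 and 79.1 CPM in WT against 91.7, 98.5 and 103 CPM in ICOS KO (0.45 ± 0.11, adjusted p = 0.0472, edgeR). Ube2s extends ubiquitin chains for the APC/C and was at 289, 275 and 281 CPM in WT against 325, 433 and 406 CPM in ICOS KO (0.46 ± 0.11, adjusted p = 0.0459). Myc, a factor that drives growth and entry into the cycle, was at 99.8, 85.8 and 87.2 CPM in WT against 70.7, 61.2 and 62.4 CPM in ICOS KO (-0.49 ± 0.11, adjusted p = 0.0375).

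The 3 calls lay close to the threshold. Leaving out a library ended that of Gmnn for 4 of the 6 libraries (WT replicates 1 and 2, ICOS KO replicates 2 and 3; adjusted p up to 0.236, edgeR). For Ube2s (up to 0.207) and Myc (up to 0.21) it did so for every library but ICOS KO replicate 1. Scaling by library totals alone also ended the calls of Gmnn (adjusted p = 0.0823) and Ube2s (0.0661), and so did leaving out the filter on low counts (0.0641 and 0.0542).

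Among origin licensing and firing genes (21 tested, 1 called), GINS subunits of the active helicase had small p-values without being called, with Gins1 at 22.5 CPM in WT and 29.3 CPM in ICOS KO (adjusted p = 0.166, edgeR) and Gins2 at 109.7 and 129.6 CPM (0.209), while Gins3 was at 42.4 and 41.2 CPM (0.897). None of the 24 fork genes was called. Rfc4, a clamp loader subunit, was at 85.6 CPM in WT and 104.5 CPM in ICOS KO (adjusted p = 0.16), Pole, the leading-strand polymerase, at 44.5 and 34.4 CPM (0.167) and Wdhd1 at 63.3 and 51.5 CPM (0.252). Among nucleotide supply genes 22 were tested and none was called, with 10 positive and 12 negative. Mthfd1 was at 158, 150 and 156 CPM in WT against 129, 90.6 and 110 CPM in ICOS KO (-0.49 ± 0.12, adjusted p = 0.0577), Gart was at 181.4 and 140.5 CPM (0.106), and Cad, which starts pyrimidine synthesis, at 96.5 and 74.1 CPM (0.178).

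The chromatin genes of S phase (15 tested, none called) had 3 genes with every ICOS KO library above WT and 2 with every one below (11.9% and 12.5% of all genes). Hmgb2 had a mean of 1200 CPM in WT and 1502 CPM in ICOS KO (adjusted p = 0.0898, edgeR), H2az1 1673 and 2139 CPM (0.0915) and H2ax 202.2 and 250.2 CPM (0.13), and these were the 3 above. The 2 below were Atad2 (log2 fold change -0.25, adjusted p = 0.256) and Brca2 (-0.26, 0.343). Of the 19 tested RB, E2F and DREAM regulators 4 were positive and 15 negative, with none called. Tfdp1, the partner of E2F factors, was at 256.9 CPM in WT and 207.7 CPM in ICOS KO (0.16), Lin52 at 15.6 and 11.4 CPM (0.195) and Lin37 at 45.5 and 54.2 CPM (0.298).

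The inhibitors of the cyclin-dependent kinases had the highest median of the 13 lists, 0.38 on the log2 scale, with 5 of 7 positive and none called. In 4 of the 7 every ICOS KO library was above every WT library, as in 11.9% of all genes, and in 0 of the 7 the reverse held. The reverse did hold for Cdkn2a, which the filter on low counts left out (0.52 to 1.05 CPM in WT and 0.15 to 0.26 CPM in ICOS KO). Cdkn1a, with the highest CPM of the list, was at 444 CPM in WT and 431 CPM in ICOS KO (log2 fold change -0.04). Cdkn2d (p19INK4d), which blocks CDK4 and CDK6, was at 210, 226 and 229 CPM in WT against 258, 310 and 298 CPM in ICOS KO (0.38 ± 0.10, adjusted p = 0.063, edgeR). Cdkn2c of the same family was at 66.1 CPM in WT and 86.3 CPM in ICOS KO (adjusted p = 0.13), and Cdkn3, a phosphatase of CDKs, at 26.3 and 35.9 CPM (0.169). Of the 8 tested G1 cyclins and CDKs none was called, and Ccnd3, a D-type cyclin, was at 580.9 CPM in WT and 529.1 CPM in ICOS KO (0.382), with Ccnh at 43.3 and 48.8 CPM (0.456) and Cdc25a at 67.7 and 60.98 CPM (0.487).

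No gene was called among the 13 tested kinases and phosphatases of mitotic entry, the 37 spindle and kinetochore genes, the 19 of condensation and cohesion or the 15 of the chromosomal passenger complex and cytokinesis. The kinases that restrain CDK1 pointed in opposite directions, Pkmyt1 at 78.6 CPM in WT and 94.6 CPM in ICOS KO (adjusted p = 0.165, edgeR) and Wee1 at 44.9 and 34.3 CPM (0.177). Cenpk of the kinetochore was at 10.3, 8.83 and 11.9 CPM in WT and 13.2, 18.5 and 15.96 CPM in ICOS KO (0.62 ± 0.20, adjusted p = 0.123). Kif2c, a microtubule-depolymerising motor, was at 100.2 and 81.1 CPM (0.167), the condensin subunit Ncapd2 at 175.3 and 138.9 CPM (0.119), and Kif23, a motor of the central spindle, at 74.6 and 59.0 CPM (0.165). Besides Myc, the growth genes (15 tested, 3 positive) held Trp53 at 211.5 CPM in WT and 175.4 CPM in ICOS KO (0.164).

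Markers of other cell types moved with the genotypes in the same libraries. The summed level of the mast cell and basophil list, with 10 of its 11 genes in the table, was 119 to 129 CPM in WT and 35.6 to 39.8 CPM in ICOS KO. All 8 of its tested genes were fitted lower in ICOS KO, and 6 of them were called. The summed level of the T cell list (9 of 9 genes in the table) was 245 to 300 CPM in WT and 367 to 469 CPM in ICOS KO. Of its 6 tested genes 3 were fitted higher and 3 lower. Called higher were Trbc1 (means of 59.0 CPM in WT and 123 CPM in ICOS KO) and Trbc2 (152 and 230 CPM), which made up most of the sum. Cd3e was called lower (8.87 and 2.30 CPM), and Cd4, Cd8a and Cd8b1 did not pass the filter on low counts. The endothelial sum was 45.4 to 55.1 CPM in WT and 66.4 to 70.4 CPM in ICOS KO. Of the 3 genes of that list only Pecam1 was in the count table, and it was not called. The endothelial sum is therefore the level of 1 gene. Among the other lists Csf1r (macrophage), Ncr1 and Tbx21 (NK cell and ILC1) were called lower in ICOS KO. Called higher were Cd79b (B cell), Epcam (epithelial) and Hba-a1 (erythroid), and no dendritic cell or neutrophil gene was called. The macrophage sum was 104 to 154 CPM in WT and 63.5 to 103 CPM in ICOS KO, the B cell sum 25.8 to 27.4 and 29.9 to 46.6 CPM, and the erythroid sum 4.26 to 4.73 and 6.59 to 14.1 CPM. The NK cell and ILC1 sums (5.51 to 8.28 and 3.61 to 7.57 CPM) and the epithelial sums (101 to 195 and 75.8 to 203 CPM) overlapped. The ILC2 list summed to 11630 to 12833 CPM in WT, of which Il5 alone gave 5970 to 7027 CPM. Sums over unlike marker lists do not measure how many cells of each type were present. The markers Prss34, Pax5, Clec9a, Cdh5, Kdr, Hbb-bt and Alas2 were not in the count table under these names and were not analysed here. Whether RNA of other cells had a part in the levels of the replication and mitosis genes was not tested.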

How the data were processed

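RNA-seq libraries of cultured ILC2s, 3 WT and 3 ICOS KO, were grouped by the labels. The authors deposited estimated counts per gene (39.4% of values not whole). Per the submitters' processing notes, Partek 10.0, STAR 2.7.8 and DESeq2 were used with mm10. The annotation, the counter and whether strand was used are not given in those notes or labels, so reads of overlapping genes and near-identical copies are uncertain. Cells were amplified by a low-input SMARTer kit per the labels' protocols, and no molecular identifier is named, so PCR copies count as reads. The series' text mentions duplicate profiles, but each genotype had 3 libraries here, all used.

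Counts were rounded, filtered with filterByExpr, TMM-normalised and tested with edgeR 4.0.16 (R 4.3.3, quasi-likelihood F test, Benjamini-Hochberg over 13691 genes, threshold 0.05, prior count 2 for CPM). The script was tested on simulated counts. Intervals are 95% from the fit. Positions, lengths and GC come from GENCODE M21 on GRCm38, matching 17691 genes by symbol and 216 by synonym, and promoters from RefSeq (GRCm38.p6). Members and lists were chosen with earlier results of these data known. Genes given per library are, per group, the 5 with the smallest p and the 5 with the highest mean, and per wider list those called or up to 3 with the smallest p, plus others described for their role. Alternatives were other scalings, filters and tools (DESeq2 1.42.0, limma 3.58.1 voom), a replicate block, removal of a length and GC trend, and each library left out.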

Additional observations from a re-analysis of the deposited data

How the results depend on the processing

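Across all genes 451 were called, of which 39% were higher in ICOS KO. DESeq2 called 929, limma voom with quality weights 906, the replicate block 784 and the length and GC removal with the block 881. Leaving out 1 library gave 193 to 1090 (193 without WT replicate 1, 194 without WT replicate 2, 216 without ICOS KO replicate 3 and 1090 without ICOS KO replicate 1). The higher share was 28.2% with library totals alone, 57.6% with length and GC removed and 64% with the block added. For each of these changes the cause was not tested.

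Replication genes called numbered 0, but 1 with weighted voom (Rrm1), 1 with length and GC removal and the block (Tyms), and 0 to 3 when a library was left out (3 without ICOS KO replicate 1). Mitosis genes called numbered 0, but 3 with length and GC removal and the block (Cdk1, Birc5 and Ube2c), and 0 under the other alternatives. The wider lists had 3 calls, against 8 with DESeq2, 8 with weighted voom, 1 with no filter, 5 with a filter of 5 CPM in 3 libraries, 8 with the block, 8 with length and GC removed, 15 with both, and 0 to 19 with a library left out. Over all genes the main fit called 451. In the same order the other settings called 929, 906, 384, 464, 784, 627 and 881 of all genes, and 193 to 1090 with a library left out. The replication median of -0.118 became -0.0234 with length and GC removed and -0.0238 with the block as well. The mitosis median of -0.0349 became -0.0987 with library totals alone, 0.0534 with length and GC removed, 0.0458 with the block as well, and -0.0738 to -0.0029 with a library left out. Over all genes tested the median was -0.0035 in the main fit and -0.0676 with library totals alone. It was 0.0215 with upper-quartile factors, 0.0459 with length and GC removed and 0.042 with the block as well.

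These log2 fold changes changed sign, with no allowance made for the shifts of the all-gene median just given. With library totals alone they were Ccnb2 (-0.055), Aurka (-0.0605), Plk1 (-0.0029) and Cdc20 (-0.035). With upper-quartile factors it was Ccna2 (0.017), and with no filter Aurka (-0.0025). Removing the length and GC trend turned Mcm5 (0.0152), Mcm7 (0.0181), Mki67 (0.0534), Top2a (0.0605), Ccnb2 (-0.0312), Ccna2 (0.0987), Bub1b (0.1395), Tpx2 (0.0192), Cenpf (0.0622) and Cdc25a (0.0229), and with the block these were 0.0147, 0.0157, 0.0458, 0.0622, -0.0308, 0.0981, 0.1358, 0.0222, 0.0606 and 0.0292, in that order. With a library left out the ranges were -0.095 to 0.0202 for Rrm2, -0.1621 to 0.067 for Ccne2, -0.0507 to 0.0563 for Ccnb2, -0.0568 to 0.0414 for Ccna2, -0.1149 to 0.0573 for Bub1b, -0.0527 to 0.0577 for Aurka, -0.1724 to 0.0217 for Aurkb and -0.0472 to 0.1022 for Cdc20. Of the other 1033 comparisons of a named gene with an alternative, 968 kept direction and call, 47 gained a call and 18 lost one (Ube2s, Gmnn and Myc).

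Libraries with the same replicate number in the 2 genotypes shared deviations only weakly (correlations of 0.087, 0.078 and 0.064), though each was the highest for its library. The numbers were therefore not taken as pairs, and with the replicate block 0 of the 30 genes were called. Each of the 30 genes had 403 counts or more in each library, and with 3 libraries per group the 95% intervals still allow differences of up to about 1.5-fold.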
